A study of Mus musculus with 6 samples.

Results

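Ion channel genes of RAW264.7 macrophages were examined as a class: the voltage-gated, potassium, chloride, volume-regulated and ATP-gated channels, taken as every protein-coding entry of the deposited table whose symbol begins with Kcn, Cacn, Scn followed by a digit, Clcn, Lrrc8 or P2rx. The rule gave 155 genes out of 54532 listed entries, 22046 of them protein coding. RAW264.7 is a macrophage line from a virus-induced mouse tumour, grown here for 3 d. For C/D, a dynamic material joined GelMA (methacryloyl gelatin) and PEDOT:PSS (a conducting polymer blend) to PLLA/PDA, and ultrasound was given (48 kHz, 5 min). Gel/S was the static control on GelMA alone, so GelMA was common to both groups. There were 3 libraries per group. The composite and the ultrasound changed together, so their contributions cannot be told apart. Columns headed US were read as C/D because the labels apply ultrasound to C/D alone, and every direction below rests on that reading.

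Potassium channels set the resting potential of a macrophage and carry the potassium efflux that precedes assembly of the NLRP3 inflammasome. ClC proteins move chloride at the plasma membrane or exchange it for protons in endosomes and lysosomes, LRRC8 proteins assemble into the volume-regulated anion channel, and P2X receptors are cation channels opened by extracellular ATP. Voltage-gated sodium and calcium channels are best known from neurons and muscle. Many of these proteins work as complexes of a pore-forming subunit with auxiliary subunits, so the mRNA of a single subunit is not a measure of current.

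The libraries held 12818831 to 15802627 counts in C/D and 15579679 to 16525699 in Gel/S. Of these, 13805 to 17074 counts fell on channel genes in C/D and 18127 to 20870 in Gel/S. Mitochondrial transcripts took 9.17 to 10.4% of the counts in C/D and 5.59 to 9.02% in Gel/S, lowest in Gel/S 1, and long intergenic RNAs 0.815 to 0.871% and 0.549 to 0.606%, in the same order. Without mitochondrial transcripts in the counts and totals, the channel calls described below were still 2 higher and 6 lower; the part of the long intergenic RNAs was not tested. Macrophage markers were present, with 11 of 12 at a mean of at least 1 FPKM (fragments scaled to gene length and library total, the authors' level per gene length). Their summed level was 13370 to 13440 FPKM in C/D and 15620 to 15770 FPKM in Gel/S, and 1 of them, Csf1r, fell (log2 fold change −0.48). The gap in the sum lay largely in Lyz2, which was not called, at 8024 FPKM in C/D and 10200 FPKM in Gel/S. Tyrobp, also not called, went the other way, at 1980 FPKM in C/D and 1568 FPKM in Gel/S. Neuronal markers summed to 0.503 to 0.712 FPKM in C/D and 0.392 to 0.445 FPKM in Gel/S, with 5 of 8, among them Snap25 and Syt1, without a count; Rbfox3 was 0.339 ± 0.0543 FPKM in C/D and 0.152 ± 0.0630 FPKM in Gel/S. Muscle markers summed to 1.33 to 1.49 FPKM in C/D and 1.29 to 1.62 FPKM in Gel/S, with 3 of 7 at 0. Marker sums of osteoblasts and fibroblasts, lymphocytes and endothelium stayed at or under 1.16 FPKM in every library. In RNA from a whole culture, fewer cells of a kind and less RNA per cell cannot be told apart.

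Most channel genes were silent or nearly so. No count was found in any library for 63 of the 155, beside 32.2% of all protein-coding entries. Another 69 had counts but a mean under 1 FPKM, of which 30 had between 1 and 10 counts over all libraries together. The remaining 23, or 14.8%, reached a mean of at least 1 FPKM over the 6 libraries and were tested; over all protein-coding entries 45.2% did. These 23 held 94.6% of the summed channel FPKM. The Clcn, Lrrc8 and P2rx families had counts for every gene, with 5 of 9, 4 of 5 and 2 of 7 tested. Of 94 Kcn genes, 46 had counts and 9 were tested. Of 26 Cacn genes, 17 had counts and 3 were tested. Of 14 Scn genes, 8 had counts and 0 were tested. No count fell on Kcnma1, the large-conductance calcium-activated potassium channel, or on any of the 5 Kcnq genes. Cacnb1, at 1.08 FPKM, was the last gene above the limit, and Kcnab3, at 0.951 FPKM, the first below it.

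**Figure D1:**
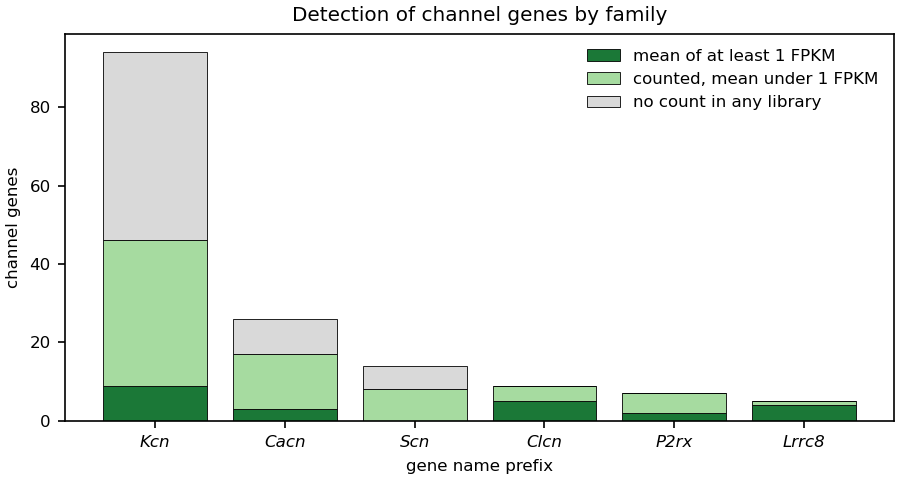
Number of channel genes (vertical axis) by gene name prefix (horizontal axis), split into genes with a mean of at least 1 FPKM, genes counted below that level, and genes without a count in any library. The Kcn prefix holds 94 genes of which 9 reach 1 FPKM, whereas 5 of 9 Clcn and 4 of 5 Lrrc8 genes do.

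Between C/D and Gel/S, 8 of the 23 tested channel genes passed the edgeR quasi-likelihood test at an adjusted p under 0.05, 2 higher and 6 lower in C/D. Over all 11710 genes tested, 27% passed, 13.1% higher and 13.9% lower. So 2 of 23 stands against 13.1% and 6 of 23 against 13.9%. The median log2 fold change of the 23 was −0.21, beside 0.01 over all tested genes, with 16 values below 0 and 7 above. At an unadjusted p under 0.05 there were 15 of the 23, beside 41% of all tested genes, and 11 of the 23 were lower in C/D at that p, beside 21% of all tested genes. The 3 C/D libraries lay below the 3 Gel/S libraries without overlap for 13 channel genes (27.1% of all tested genes) and above for 3 (19.1% of all). The higher count was 1 without C/D 1, without C/D 3 or without Gel/S 3. Over all genes, leaving out C/D 1, C/D 2, C/D 3 or Gel/S 3 left 887 to 952 genes higher, against 1532 with every library, and 867 to 1006 lower, against 1631.

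**Figure D2:**
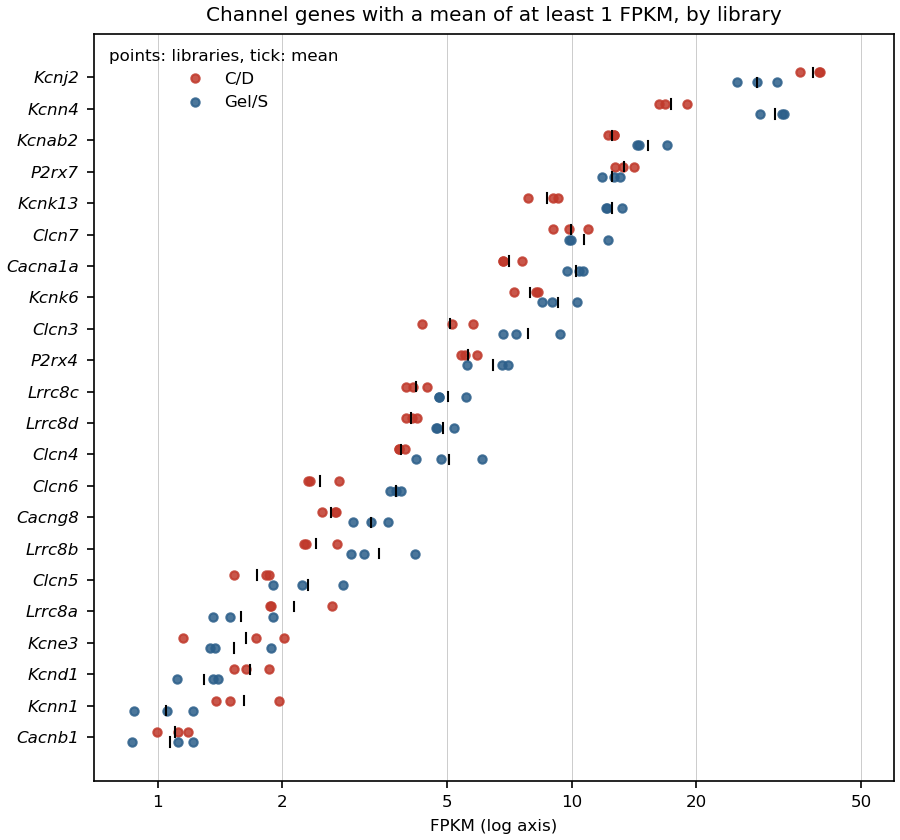
FPKM of 22 of the 23 tested channel genes on a log axis, ordered by mean level, with 1 point per library (C/D in red above Gel/S in blue) and a tick at each group mean. Kcnj2 in C/D (35.6 to 39.9 FPKM) is the highest channel mRNA, and Kcnn4 is lower in every C/D library (16.3 to 19.0 FPKM) than in every Gel/S library (28.4 to 32.6 FPKM).

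The most abundant channel mRNAs were both potassium channels, and they moved in opposite directions. Kcnj2 encodes Kir2.1, the inward rectifier that holds macrophages near the potassium equilibrium potential (chromosome 11, 111066164 to 111076821, GRCm38). It measured 39.9, 35.6 and 39.6 FPKM in C/D 1 to 3, against 25.0, 31.3 and 28.0 FPKM in Gel/S 1 to 3. Every C/D library was above every Gel/S library. The log2 fold change was 0.49 (SE 0.103, edgeR adjusted p = 0.00586), a rise of 1.40-fold.

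Kcnn4 encodes KCa3.1, the intermediate-conductance channel opened by calcium through calmodulin (chromosome 7, 24370263 to 24386690). It measured 19.0, 16.9 and 16.3 FPKM in C/D, against 32.2, 32.6 and 28.4 FPKM in Gel/S. The groups were far apart relative to their spread, with SDs of 1.41 FPKM in C/D and 2.27 FPKM in Gel/S (n = 3 each). It fell by 0.80 on the log2 scale (SE 0.0933, edgeR adjusted p = 0.000268), the largest fall among the tested channel genes. The ratio of Kcnj2 to Kcnn4 FPKM was 2.10, 2.11 and 2.44 in the C/D libraries and 0.778, 0.963 and 0.983 in the Gel/S libraries, a description with no test.

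The 250 bases before the start of Kcnn4, Kcnj2 and Clcn7 are shown because the first pair are the highest channel mRNAs and changed in opposite directions, while Clcn7, described below, was not called. All are on the plus strand, from RefSeq (GRCm38.p6), with starts equal to those of the deposited table, and the capitals mark the E-box CACGTG, which reads alike on both strands. The windows are chr7:24370013-24370262, chr11:111065914-111066163 and chr17:25133141-25133390, in that order.
Kcnn4: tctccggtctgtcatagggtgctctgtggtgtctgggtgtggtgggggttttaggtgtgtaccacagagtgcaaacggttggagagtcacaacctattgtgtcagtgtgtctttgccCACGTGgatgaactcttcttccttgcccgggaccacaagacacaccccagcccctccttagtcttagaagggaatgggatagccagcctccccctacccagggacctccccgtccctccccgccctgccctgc
Kcnj2: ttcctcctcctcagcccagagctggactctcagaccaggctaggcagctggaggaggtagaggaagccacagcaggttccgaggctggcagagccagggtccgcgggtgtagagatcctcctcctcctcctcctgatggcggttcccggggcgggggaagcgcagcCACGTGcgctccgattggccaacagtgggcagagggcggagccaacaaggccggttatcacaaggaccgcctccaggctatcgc
Clcn7: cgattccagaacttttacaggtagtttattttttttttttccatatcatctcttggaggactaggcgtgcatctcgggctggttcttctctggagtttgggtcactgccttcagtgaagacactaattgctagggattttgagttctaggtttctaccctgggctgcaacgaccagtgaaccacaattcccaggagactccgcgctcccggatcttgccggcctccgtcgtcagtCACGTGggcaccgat
Each window held 1 E-box, whose first base lay 133, 84 and 15 bases before the start. The motif was chosen after these sequences were seen, and 6.02% of 32817 RefSeq windows of the same length held it. Those windows cover genes expressed here or not, so they are not a like-for-like background for tested genes. RefSeq gave 30 windows for 19 of the 23 tested genes, and 6 of the 30 held an E-box, in genes of which 1 was higher, 2 lower and 3 not called in C/D. The AP-1 site TGANTCA, searched on both strands, was in 3 of the 30 windows (6.75% of all windows), and the CRE TGACGTCA in 2 (1.55% of all).

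The second calcium-activated channel moved the other way from Kcnn4. Kcnn1 encodes SK1, a small-conductance channel also gated by calmodulin, and had 1.96, 1.38 and 1.49 FPKM in C/D, against 1.21, 0.878 and 1.05 FPKM in Gel/S, from 65 to 117 counts per library. The groups did not overlap, and C/D 1 stood highest. Its log2 fold change was 0.66 (SE 0.198, edgeR adjusted p = 0.0291). The call was lost without C/D 1, C/D 3, Gel/S 2 or Gel/S 3 (adjusted p up to 0.115) and with limma on log2 FPKM (0.0944 and 0.103 with pseudocounts of 1 and 0.1).

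Both tested channels of the K2P family, which conduct background potassium current, were lower in C/D in every library, and Kcnk13 passed while Kcnk6 did not; the difference between the genes was not tested. Kcnk13 encodes THIK-1, known in mouse microglia as a channel that sets the resting potential and favours interleukin-1β release (chromosome 12, 99964499 to 100062682). It fell to 7.86, 8.99 and 9.25 FPKM in C/D, against 13.2, 12.2 and 12.1 FPKM in Gel/S (log2 fold change −0.48, SE 0.0983, edgeR adjusted p = 0.00520). Kcnk6 encodes TWIK-2, described in mouse macrophages as a route of potassium efflux after ATP. It measured 8.21, 8.31 and 7.26 FPKM in C/D, against 10.3, 8.47 and 8.96 FPKM in Gel/S. The nearest libraries, C/D 2 and Gel/S 2, almost met, and the log2 fold change of −0.18 did not pass (95% interval −0.40 to 0.05, edgeR adjusted p = 0.213).

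Auxiliary and voltage-gated potassium subunits did not pass the test. Kcnab2, the cytosolic Kv beta subunit with an oxidoreductase fold, was the third most abundant channel mRNA at 12.5 ± 0.239 FPKM in C/D and 15.3 ± 1.45 FPKM in Gel/S (SD, n = 3 each). Its libraries did not overlap, and its log2 fold change of −0.24 had an edgeR adjusted p of 0.0534, which was 0.0288 without Gel/S 2 and 0.0351 with no filter on low values. Kcnab2 also passed at a limit of 0.5 FPKM and with edgeR's expression filter. Kcnd1, the Kv4.1 channel, was 1.68 ± 0.170 FPKM in C/D and 1.29 ± 0.155 FPKM in Gel/S, without overlap (log2 fold change 0.41, edgeR adjusted p = 0.0791). Kcne3, a single-span regulatory subunit, was 1.63 ± 0.440 FPKM in C/D and 1.53 ± 0.304 FPKM in Gel/S, with overlapping libraries.

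**Figure D3:**
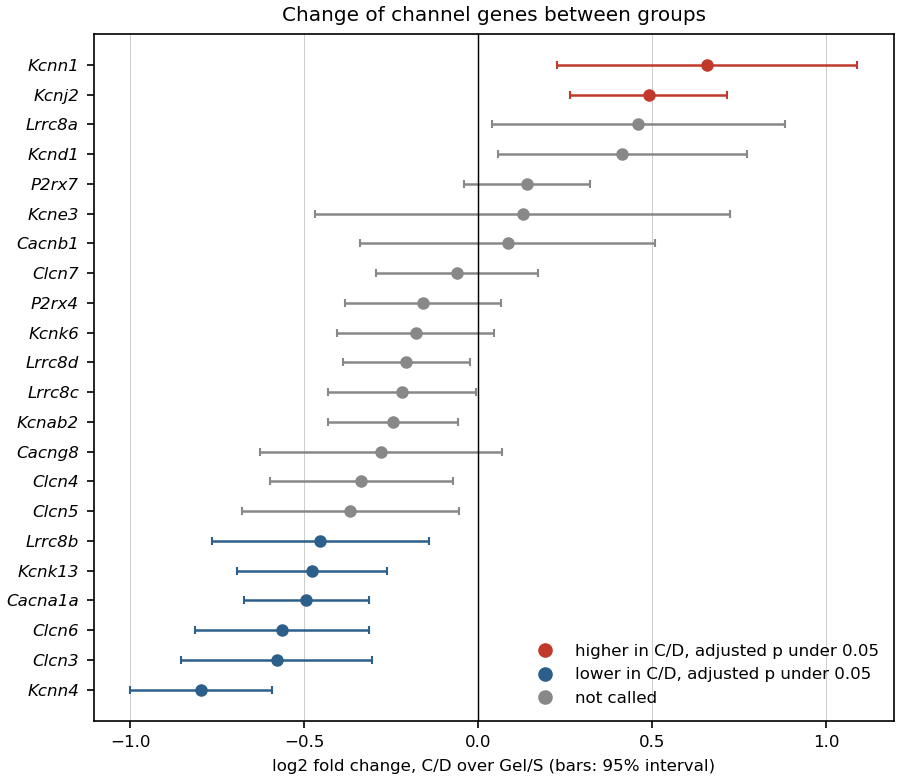
Log2 fold change of C/D over Gel/S for 22 of the 23 tested channel genes (horizontal axis), with 95% intervals from the edgeR quasi-likelihood fit. Genes with an adjusted p under 0.05 are red when higher (Kcnn1, Kcnj2) and blue when lower (Lrrc8b, Kcnk13, Cacna1a, Clcn6, Clcn3, Kcnn4), and the genes in grey did not pass.

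The 5 tested ClC genes all had lower group means in C/D, and 2 of them passed. Clcn3 to Clcn7 encode exchangers of chloride for protons in endosomes and lysosomes. The summed FPKM of the 9 Clcn genes was 24.5, 24.9 and 23.5 in C/D, against 35.3, 27.6 and 28.4 in Gel/S, highest in Gel/S 1. Clcn3, an exchanger of endosomes and synaptic vesicles (chromosome 8, 60910389 to 60983300), measured 4.36, 5.79 and 5.13 FPKM in C/D, against 9.38, 6.83 and 7.33 FPKM in Gel/S. The groups did not overlap, and Gel/S 1 stood above the other Gel/S libraries. It fell by 0.58 on the log2 scale (SE 0.126, edgeR adjusted p = 0.00686), and by 0.44 without Gel/S 1, where it still passed. Clcn6, the late endosomal member, measured 2.33, 2.75 and 2.31 FPKM in C/D, against 3.86, 3.77 and 3.63 FPKM in Gel/S. All Gel/S libraries agreed closely (SD 0.114 FPKM, n = 3), and the log2 fold change was −0.56 (SE 0.115, edgeR adjusted p = 0.00486).

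The other ClC genes did not pass. Clcn7, the lysosomal exchanger that also acidifies the resorption space of osteoclasts, was the most abundant of the family at 10.9, 9.86 and 9.03 FPKM in C/D and 12.2, 9.84 and 9.97 FPKM in Gel/S. The libraries overlapped, and the log2 fold change of −0.06 had a 95% interval of −0.29 to 0.17. Clcn4 (−0.34, edgeR adjusted p = 0.0578) and Clcn5 (−0.37, 0.0750), both endosomal, were below Gel/S in every C/D library. Clcn4 passed without Gel/S 2 (0.00659) and Clcn5 without Gel/S 3 (0.0440), and with no filter on low values both did (0.00822 and 0.0105). Clcn4 also passed with edgeR's expression filter. Ostm1, the beta subunit of Clcn7, fell by 0.45 on the log2 scale (edgeR adjusted p = 0.0358), but only by 0.27 without Gel/S 1, and it passed only when no library or Gel/S 2 was left out. Osteoclast markers moved in these libraries too: of 8, 4 were tested, Atp6v0d2 (0.83) and Acp5 (0.53) rose, Dcstamp fell (−0.96) and Ocstamp did not pass. Calcr had no count, and the summed level of the list was 46.6 to 52.3 FPKM in C/D and 52.4 to 55.1 FPKM in Gel/S. The lower sum in C/D came from Dcstamp (14.9 FPKM in C/D and 29.9 FPKM in Gel/S). Acp5 (20.8 and 14.8 FPKM) and Atp6v0d2 (9.99 and 5.80 FPKM) went the other way. Ctsk and Oscar, under 1 FPKM and not tested, were also above Gel/S in every C/D library. The part of this list in the ClC values was not tested.

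**Figure D4:**
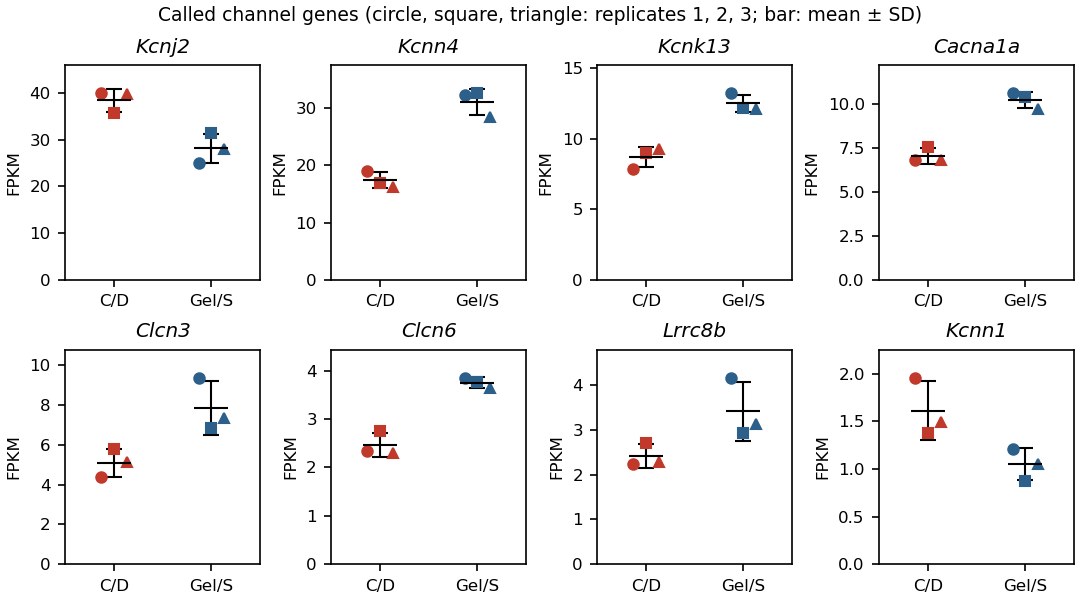
FPKM in each library (circle, square and triangle for replicates 1, 2 and 3) of the 8 channel genes that passed the test, C/D left and Gel/S right, with mean and SD as bars and each vertical axis starting at 0. No gene has overlapping groups, and Gel/S 1 stands apart from the other Gel/S libraries for Clcn3 (9.38 FPKM) and Lrrc8b (4.18 FPKM).

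The volume-regulated anion channel needs LRRC8A, the obligatory subunit, with at least one of its relatives LRRC8B to LRRC8E. Lrrc8b, Lrrc8c and Lrrc8d lie side by side on chromosome 5, separated by 29313 and 86950 bases, and were the partner genes with a mean above 1 FPKM. Lrrc8b measured 2.25, 2.72 and 2.28 FPKM in C/D, against 4.18, 2.93 and 3.15 FPKM in Gel/S. It fell by 0.45 on the log2 scale (SE 0.144, edgeR adjusted p = 0.0363). This value leaned on Gel/S 1: it was −0.29 without that library (adjusted p = 0.103), and the call was also lost without C/D 1 (0.121), C/D 3 (0.118) or Gel/S 3 (0.0622). Lrrc8c measured 3.99, 4.48 and 4.13 FPKM in C/D, against 5.55, 4.79 and 4.78 FPKM in Gel/S. Lrrc8d measured 4.10, 4.22 and 3.98 FPKM in C/D, against 5.21, 4.69 and 4.73 FPKM in Gel/S. Neither had overlapping groups, at log2 fold changes of −0.22 and −0.21, and neither passed (edgeR adjusted p = 0.114 and 0.0845).

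Lrrc8a differed in sign from its partners. It measured 2.64, 1.88 and 1.87 FPKM in C/D, against 1.5, 1.90 and 1.36 FPKM in Gel/S, with C/D 1 highest and with overlap at Gel/S 2. The log2 fold change of 0.46 did not pass (SE 0.193, 95% interval 0.04 to 0.88, edgeR adjusted p = 0.0947) and was 0.62 without Gel/S 2 (0.0281). The annotation places 2853 of its 4308 exon bases also in Gm28035 on the same strand, listed at 0, so its level depends on how shared reads were assigned, which the sources used here do not state.

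The ATP-gated channels P2rx7 and P2rx4, neighbours on chromosome 5 that are 16111 bases apart, were well expressed and showed no call. P2rx7 encodes the low-affinity ATP receptor that drives potassium efflux in macrophages. It measured 13.3, 14.1 and 12.7 FPKM in C/D and 13.1, 12.7 and 11.9 FPKM in Gel/S, with overlapping libraries and a log2 fold change of 0.14 (95% interval −0.04 to 0.32, edgeR adjusted p = 0.225). P2rx4, a high-affinity receptor found largely on lysosomes, measured 5.92, 5.52 and 5.39 FPKM in C/D and 7.0, 5.58 and 6.78 FPKM in Gel/S. Its log2 fold change was −0.16 (95% interval −0.38 to 0.07, edgeR adjusted p = 0.267). The intervals exclude a change of either gene by 1 log2 unit, but so does that of the called gene Cacna1a (−0.67 to −0.31). The other P2rx genes had means under 1 FPKM, led by P2rx5 with 8 to 22 counts per library.

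Among calcium channel genes, Cacna1a stood out by level and by change. It encodes the pore of the Cav2.1 (P/Q-type) channel of presynaptic terminals (chromosome 8, 84388440 to 84640246). It fell to 6.82, 7.59 and 6.82 FPKM in C/D, against 10.6, 10.4 and 9.74 FPKM in Gel/S, from 1013 to 1941 counts per library. The groups were well separated (log2 fold change −0.49, SE 0.0828, edgeR adjusted p = 0.00184). Of its 11418 exon bases, 435 are shared with the antisense gene Gm16183, whose mean was 0.491 FPKM in C/D and 0.896 FPKM in Gel/S, and reads of the pair cannot be told apart without strand. Cacng8, known from neurons as a partner of AMPA receptors, measured 2.49, 2.68 and 2.69 FPKM in C/D, against 2.96, 3.28 and 3.60 FPKM in Gel/S. Cacnb1, a cytosolic beta subunit, was 1.10 ± 0.0930 FPKM in C/D and 1.07 ± 0.181 FPKM in Gel/S. The groups of Cacng8 did not overlap, but neither gene passed (edgeR adjusted p = 0.210 and 0.771). Of the alpha-2-delta genes, the highest was Cacna2d4 at 0.805 ± 0.0928 FPKM in C/D and 0.607 ± 0.0551 FPKM in Gel/S. The sodium channel genes were all under 1 FPKM. Scn11a, the Nav1.9 channel of sensory neurons, led them with 66, 66 and 52 counts in C/D, against 71, 66 and 97 in Gel/S. The groups overlapped.

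Of the genes below 1 FPKM, the highest were Kcnab3, Cacna1f, Kcnk7, Scn11a and Cacna2d4. When every gene with a count was fitted, 0 of the 69 passed edgeR's quasi-likelihood test at an adjusted p under 0.05, beside 16.7% of all 23869 genes in that fit. An unadjusted p under 0.05 was given by 8 of the 69, beside 26.1% of all, and 7 of the 69 were higher in C/D at that p, beside 12.3% of all. The smallest adjusted p was 0.0503, for Cacnb3. Kcna3, the Kv1.3 channel of lymphocytes and macrophages, had 6, 15 and 7 counts in C/D and 2, 1 and 6 in Gel/S.

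In the authors' deposited table, 9 of the 155 channel genes have an adjusted p under 0.05, 8 lower and 1 higher in C/D. Of all 21850 genes with a value there, 14.9% do, but not every channel gene has a value, so the shares are not like for like. The split by direction over all genes of that table was not counted. Of the 9, 7 were also called here. The authors' deposited table adds Kcnab2 (adjusted p = 0.0356) and Clcn4 (0.0366) and does not hold Kcnn1 (0.0530).

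Genes that work beside these channels were counted from 6 lists, to be read against the 13.1% of all tested genes that were higher and the 13.9% that were lower in C/D. Among pumps and cation-chloride cotransporters, 3 of 13 tested genes rose and 3 fell (median log2 fold change −0.07). Slc12a4, the potassium-chloride cotransporter KCC1, fell by 0.80 on the log2 scale, to 8.71 ± 0.211 FPKM in C/D, against 15.6 ± 1.28 FPKM in Gel/S (edgeR adjusted p = 0.000240). Slc12a2, the sodium-potassium-chloride cotransporter, fell by 0.45, a call lost without C/D 1, C/D 3 or Gel/S 3. The pump regulators Fxyd5 (0.78) and Fxyd2 (0.67) and the cotransporter Slc12a5 (0.85) rose, Slc12a5 with its call lost in limma. Slc12a5 was 1.59 ± 0.342 FPKM in C/D and 0.908 ± 0.0226 FPKM in Gel/S. It was under 1 FPKM in every Gel/S library, so it entered the test only through its C/D values. Without C/D 1, C/D 3 or Gel/S 3 the fallen count was 1.

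Of 6 tested kinases and ligases that act on channels and cotransporters, 0 rose and 2 fell, Sgk1 and Sgk3. Sgk1, a kinase known to raise the surface abundance of many channels, fell to 0.882 ± 0.134 FPKM in C/D, against 5.17 ± 1.16 FPKM in Gel/S (log2 fold change −2.50, edgeR adjusted p = 4.5e-05). Its C/D mean was under 1 FPKM, so Sgk1 entered the test only through its Gel/S values. Sgk3 fell by 0.33, a call lost without any library other than Gel/S 2, which leaves 1 in this list. With every library kept, the Sgk3 call was also lost with upper-quartile factors, with library totals only and with limma. Among 11 other anion channels and ClC partners, 1 rose and 5 fell, beside 13.1% and 13.9% of all tested genes (median −0.34). Slc26a11, a lysosomal anion transporter, rose by 0.82 on the log2 scale, whereas Clcc1 of the endoplasmic reticulum (−0.43), Clic4 (−0.55), Ttyh3 (−0.45), Ostm1 and the scramblase Ano6 fell. Ano6 gave −0.49, but −0.24 without Gel/S 1, and passed only when no library or Gel/S 2 was left out. Ttyh3 gave −0.28 without Gel/S 1 and lost its call without C/D 1, C/D 3 or Gel/S 3. The count fallen was 2 without C/D 1, C/D 3 or Gel/S 3, and 3 without C/D 2 or Gel/S 1.

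Of 9 organelle and proton channels, 1 rose, the lysosomal cation channel Mcoln1 (0.31), and 0 fell (median −0.05). That call was lost without C/D 2 or Gel/S 3. Of 7 tested genes for ATP release, other purine receptors and ecto-nucleotidases, 0 rose and 2 fell (median −0.15). P2ry6, the UDP receptor, fell to 32.4 ± 1.68 FPKM in C/D, against 45.1 ± 3.11 FPKM in Gel/S (log2 fold change −0.44, edgeR adjusted p = 0.00469), and Adora2b, an adenosine receptor, fell by 0.56, a call lost without any library other than Gel/S 1. Panx1, a channel that releases ATP, was 4.37 ± 0.239 FPKM in C/D and 4.92 ± 0.440 FPKM in Gel/S and did not pass.

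In the inflammasome list, 4 of 10 tested genes rose and 1 fell, beside 13.1% and 13.9% of all tested genes (median 0.17). Casp1, which cleaves interleukin-1β, rose to 95 ± 5.03 FPKM in C/D, against 67.8 ± 6.31 FPKM in Gel/S (log2 fold change 0.53, edgeR adjusted p = 0.00282), and the sensor Nlrp3 fell to 36.5 ± 1.90 FPKM, against 49.6 ± 3.58 FPKM in Gel/S (−0.40, edgeR adjusted p = 0.00677). Gsdmd (0.37), Il18 (0.33) and Casp4 (0.33) rose with edgeR adjusted p values from 0.0151 to 0.0445. The call of Gsdmd was lost without C/D 1, C/D 2 or Gel/S 3 (edgeR adjusted p = 0.0634, 0.0502 and 0.0587). The libraries of Casp4 overlapped between the groups, and the calls of Il18 and Casp4 were lost with limma and under each of the 3 other filters on low values. With single libraries left out 1 to 5 genes of the list rose, 1 without C/D 1 or Gel/S 3 and 2 without C/D 2, C/D 3 or Gel/S 1. Pycard, the adaptor ASC that RAW264.7 cells are known to lack, was 0.0286 ± 0.0335 FPKM in C/D and 0.0835 ± 0.0514 FPKM in Gel/S.

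**Figure D5:**
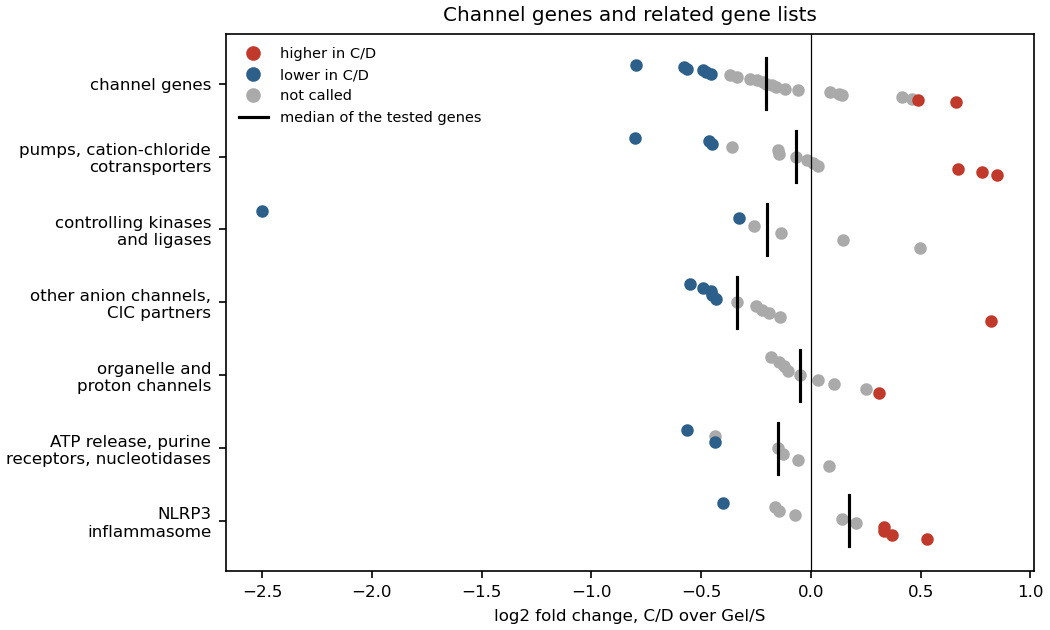
Log2 fold change of C/D over Gel/S for each tested gene of the channel set and of 6 related lists (rows), red when higher and blue when lower at an adjusted p under 0.05, with the median as a black line. The channel median is −0.21, that of other anion channels −0.34 and that of the inflammasome list 0.17, and the far left point is Sgk1 (−2.50).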

How the data were processed

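RNA from 6 RAW264.7 libraries, 3 of C/D and 3 of Gel/S by the sample titles, was sequenced with a SMARTER mRNA kit, per the labels' protocols. The deposited counts were read as the authors' raw counts per gene, from headers that say only count. The deposited FPKM values are the authors' counts per kilobase and per library total, where the total they imply is 0.976 to 1.02 times the sum of the counts. The signal columns, whose headers name only the comparison and the group, were read as the authors' group means of scaled counts. The authors' deposited log2 fold changes run Gel/S over C/D and were turned round here, and the deposited p-values and adjusted p-values are the authors' own. The genome build was GRCm38 (mm10), per the submitters' processing notes. The sources used here do not give the aligner, the counter or the strandedness. GENCODE M21 gives 151 of the 155 channel genes the same coordinates.

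Genes with a mean of at least 1 FPKM (11710) were tested by gene ID with edgeR 4.0.16 (quasi-likelihood, TMM factors) in R 4.3.3, with Benjamini-Hochberg adjustment over all of them and a threshold of 0.05. SE was taken as the size of the log2 fold change divided by the root of its F. The pipeline was tested on simulated counts. The labels name no separate cultures, so p-values measure the spread between these libraries, which may be technical. Replicates of a group differed by more than sampling noise. The members, lists and tests were chosen with earlier results of these data known. Genes were named by a rule: each channel gene of at least 1 FPKM, the 5 highest below it, the gene of largest summed count below it in a family, and up to 6 called genes per list by smallest p; Kcnma1, Kcnq, Kcna3, Cacnb3, Panx1 and Pycard were singled out after their values were seen. A few further genes are not reported here. Alternatives were DESeq2 1.42.0, limma 3.58.1, other factors and filters, each library left out and a replicate block.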

Additional observations from a re-analysis of the deposited data

Results flagged for a closer look

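Kcnq1ot1, the long antisense RNA of the Kcnq1 locus on chromosome 7, is among the 6 non-coding entries with a channel prefix, which the comparison of protein-coding genes left out. It drew attention because each C/D library was above each Gel/S library, at a mean of 0.142 FPKM in C/D and 0.106 FPKM in Gel/S. Counts were 159, 236 and 193 in C/D and 155, 176 and 138 in Gel/S, although Kcnq1 itself had none. C/D lay above Gel/S without overlap for 19.1% of the genes of at least 1 FPKM. Being under 1 FPKM, it was not tested with them. When every gene with a count was fitted, its log2 fold change was 0.43 (edgeR adjusted p = 0.0360), and 16.7% of all genes in that fit passed. With edgeR's expression filter it was 0.45 (edgeR adjusted p = 0.0328). Lrrc8dos had 2 to 9 counts per library, and the other 4 entries had none.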

How the results depend on the processing

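Of the 8 channel calls, 6 (Kcnj2, Kcnn4, Kcnk13, Cacna1a, Clcn3 and Clcn6) passed in all 17 alternatives, and the other 2, Kcnn1 and Lrrc8b, did not. Other filters added falls: 7 channel genes were lower at 0.5 FPKM, 8 with edgeR's expression filter and 9 with none, where Kcnab2, Clcn4 and Clcn5 passed. Over all genes the count lower grew too, from 1631 of 11710 to 1826, 1904 and 2236 in the same order, the last of 23869. Limma on log2 FPKM gave 1 channel gene higher with either pseudocount, and 1021 and 1009 genes higher overall (pseudocounts 1 and 0.1). With single libraries left out, channel genes numbered 1 to 2 higher and 5 to 8 lower, all genes 887 to 1993 higher and 867 to 2097 lower, and the channel median ranged from −0.25 to −0.15. That median was −0.12 with edgeR's expression filter and 0.13 over the 92 with any count, where more low genes are included. With single libraries left out, 3 uncalled genes changed sign: Clcn7 ranged from −0.135 to 0.0363 (above 0 without C/D 3 or Gel/S 1), Cacnb1 from −0.0483 (without Gel/S 3) to 0.177, and Kcne3 from −0.0567 (without C/D 3) to 0.337. Same-numbered libraries did not deviate together (correlations of −0.06, −0.06 and 0.05), and no library correlated best with its own number. With the replicate number as a block, 2 channel genes were higher and 5 lower, Lrrc8b had an adjusted p of 0.0651, and 1240 and 1297 genes were higher and lower overall; in the lists, 3 other anion genes fell, without Ostm1 (0.0686) and Ttyh3 (0.0507), 2 inflammasome genes rose, without Il18 (0.0754) and Casp4 (0.0753), and 1 kinase and 1 purine gene fell. The number of channel genes at a mean of at least 1 FPKM was 23 to 24 with single libraries left out, 29 at a limit of 0.5 FPKM, 18 at 2 FPKM and 31 with TPM. Of the 69 counted genes under 1 FPKM, 30 had 10 or fewer counts over all libraries; the part of depth in their lack of calls was not tested.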
